A study of Canis lupus familiaris with 6 samples.

Results

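The genes described here encode the vesicle transport machinery that moves proteins between the endoplasmic reticulum (ER) and the Golgi apparatus. They were chosen by name, from a list of 60 symbols set against the gene names of the deposited table, and 57 of its 20500 rows matched. The list was drawn up with earlier results of these data known. SEC12 is an older name of PREB, which matched under its own symbol, and TMED4 and SEC22B are not analysed here. The 57 genes comprise 14 of the COPII coat and its regulators, 15 of the COPI coat and its ARF machinery, 20 cargo receptors, and 8 SNAREs, tethers and Golgi membrane proteins. All 57 passed the filter on low values, a mean of at least 1 TPM over the 6 libraries, where TPM is a transcript abundance per unit of length, scaled to a fixed total per library. Their mean levels ran from 5.79 TPM for COPZ2 to 428 TPM for ARF4.

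The measurements come from polyA RNA of HU-HSA-2, a canine hemangiosarcoma line, grown in DMEM with fetal bovine serum. The 3 treated libraries are from cells given (R)-GNE-140, a small molecule inhibitor of lactate dehydrogenase, for 72 hours, and the 3 control libraries from cells given DMSO. Both groups are the same single cell line, so no second line stands behind any value. The labels give no dose and do not say whether the replicates were separate cultures, so the p-values speak only of the scatter among these libraries, which could be technical.

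Each library summed to 1000000 TPM within rounding, and their sequencing depth is unknown, since this unit does not retain it. Between 10881 and 10970 genes reached 1 TPM in a treated library and between 10755 and 10850 in a control library. Of 12 endothelial marker genes, 11 averaged at least 1 TPM, led by CLDN5 and PECAM1, while VWF, a defining endothelial marker, averaged only 0.0867 TPM in treated and 0.0833 TPM in control libraries. The endothelial markers summed to 1341 to 1429 TPM in treated libraries and 1488 to 1714 TPM in controls. The largest parts were CLDN5, averaging 625 TPM in treated and 758 TPM in control libraries, and PECAM1, averaging 317 and 347 TPM. By limma 0 of the 11 tested were called, and 1 was higher and 3 lower at an unadjusted p under 0.05. Over all genes tested 3.03% were called, and 8.75% were higher and 9.16% lower at that unadjusted level. The 6 haematopoietic markers with a row summed to 6.56 to 7.93 TPM in treated libraries and 5.45 to 6.12 TPM in controls. CD14 made up most of these sums, averaging 5.92 TPM in treated and 4.50 TPM in control libraries. The 6 mesenchymal markers summed to 5.00 to 7.04 TPM and 3.59 to 4.26 TPM. In these lists CD14 and COL1A1 alone were higher at an unadjusted limma p under 0.05, and neither was called. The 3 epithelial markers with a row summed to at most 0.26 TPM in treated and 0.03 TPM in control libraries, and CDH1 and CD3E were listed at 0 throughout. Whether these marker levels take part in the results below was not tested.

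COPII is the protein coat that buds vesicles from ER exit sites towards the Golgi, and COPI is the coat that carries proteins back from the Golgi to the ER. Most cargo receptors span the membrane and link proteins inside the vesicle to the coat outside it. SNAREs fuse the vesicle with its target membrane after tethers have caught it. Endothelial cells use this route for the receptors, adhesion proteins and matrix that they place on or outside their surface.

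The question is which of these transcripts differ between cells given (R)-GNE-140 and control cells. Of the 20 cargo receptors, 7 fell and 0 rose past the threshold, an adjusted p of 0.05 by limma with Benjamini-Hochberg adjustment over all 10874 genes tested. Over all genes tested 1.72% fell by that rule and 1.31% rose, 3.03% in all, against 35.0% of the cargo receptors that fell. Among the 2948 tested genes averaging 33.3 to 134 TPM, the middle range of the 57 genes, 2.78% fell. Because the lists were chosen with earlier results of these data known, these shares describe the list and do not test it. The 7 genes were CNIH4, TMED3, ERGIC2, CNIH1, TMED9, ERGIC1 and TMED10. None of the 14 COPII genes, the 15 COPI genes or the 8 SNARE and tether genes passed. At an unadjusted limma p under 0.05, 0 COPII genes were called in either direction, 1 COPI gene was higher and 1 lower, and 1 SNARE and tether gene was lower, while 15 cargo receptors were lower and 0 higher. Among all genes tested 9.16% were lower and 8.75% higher at that unadjusted level. In bulk RNA, fewer cells of a type and less RNA per cell cannot be told apart.

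The median log2 difference, on the log2(TPM + 1) scale and taken as treated minus control, was -0.23 over the cargo receptors. It was 0.02 over the COPII genes, 0.01 over the COPI genes, 0.02 over the SNAREs and tethers and 0.004 over all genes tested. Standard errors of the 57 log2 differences ran from 0.04 to 0.12. The small medians of the COPI and SNARE lists turned sign with some libraries left out. In 15 of 20 cargo receptors (75.0%) all 3 treated libraries lay below all 3 controls, a pattern found in 11.8% of all genes tested. The same pattern held for 1 COPII gene, 1 COPI gene and 2 of the SNARE and tether list. The difference between the lists was not tested, and the lists were not chosen independently of these data.

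**Figure D1:**
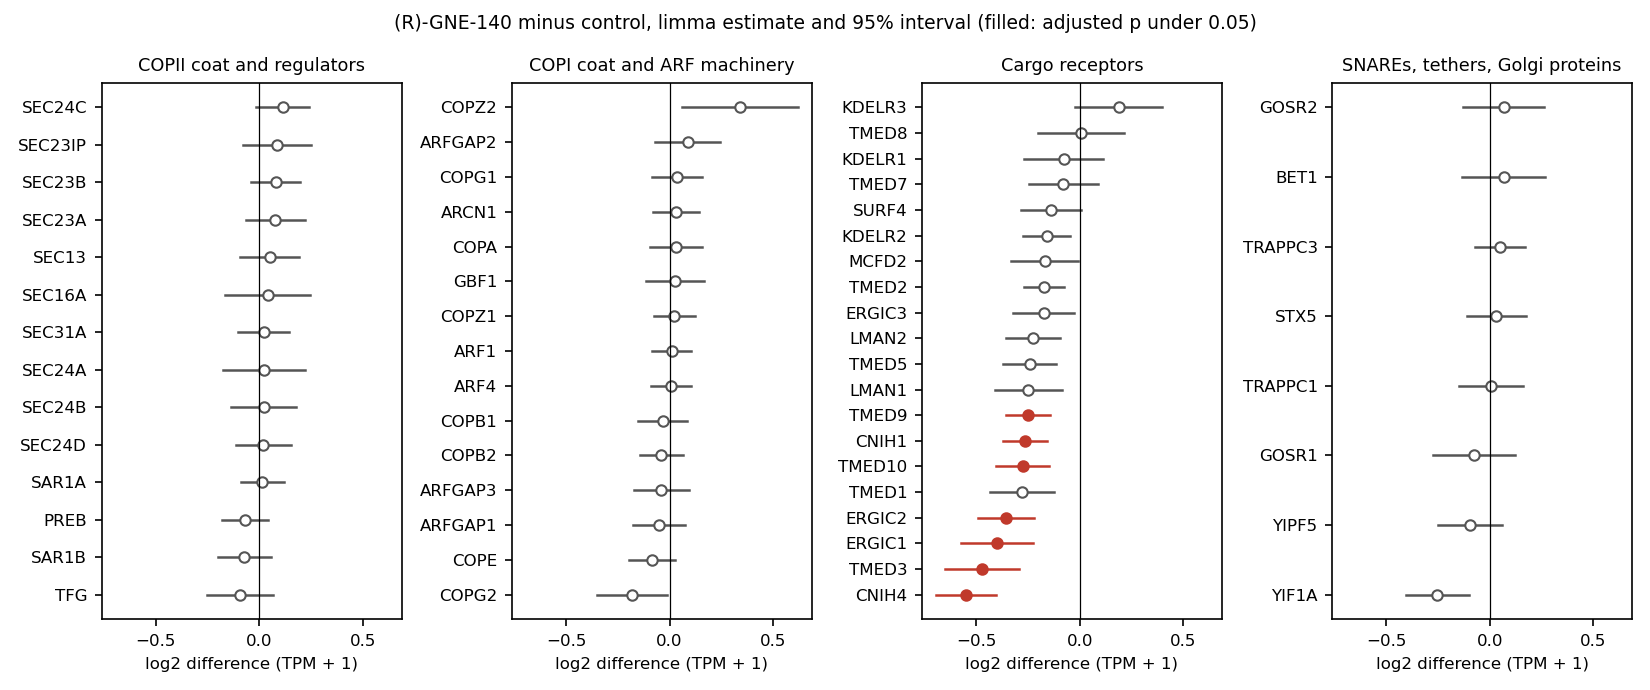
Log2 difference on the log2(TPM + 1) scale (x axis) of each of the 57 genes, (R)-GNE-140 minus control, with its 95% interval, in 4 panels by role. Filled red points are the 7 genes past an adjusted p of 0.05, all cargo receptors, and most other cargo receptors also lie left of 0, while the COPII points lie within 0.12 of it.

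Summed over the 20 cargo receptors, the treated libraries held 1707, 1643 and 1613 TPM, against 1998, 1907 and 2056 TPM in the controls. The treated sums were all lower than the lowest control, by 16.7% between the group means. Summed over the 29 COPII and COPI genes, the treated libraries held 3136, 3000.0 and 3078 TPM and the controls 3051, 2989 and 3160 TPM, and these sums overlapped. Per 100 TPM of coat genes there were 53.9 ± 1.28 TPM of cargo receptors in treated libraries and 64.8 ± 0.885 TPM in controls (SD, n = 3 each).

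**Figure D2:**
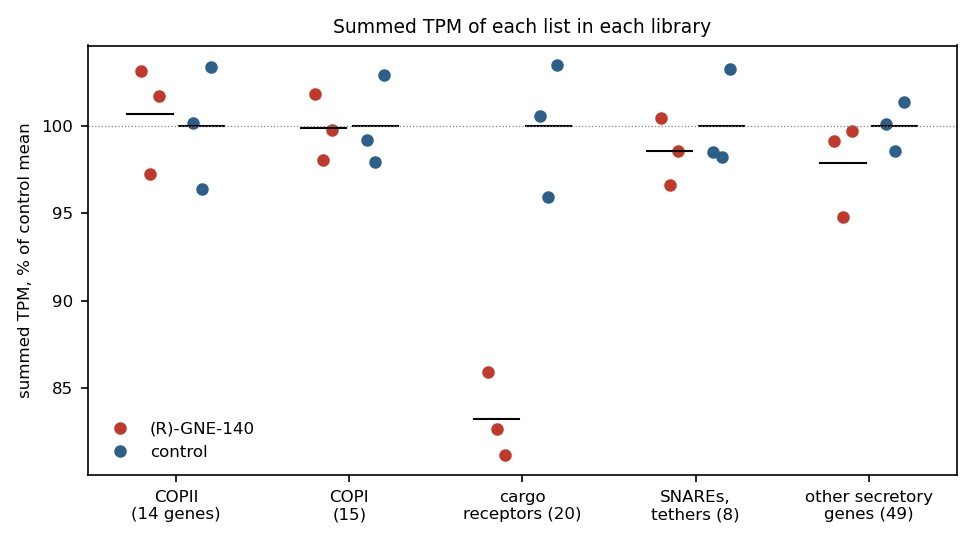
Summed TPM of each gene list in each library, as a percentage of that list's control mean (y axis, which does not start at 0), with treated libraries in red and controls in blue and black bars for group means. Only in the cargo receptor column, of the 5 columns drawn, do all treated libraries lie below all controls.

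The cornichons are small membrane proteins that carry growth factor precursors and receptors into COPII vesicles, and both of those listed fell. CNIH4 (ENSCAFG00845012452), which acts in the ER export of G protein-coupled receptors, had 126, 124 and 114 TPM in treated libraries, against 193, 166 and 176 TPM in controls. The groups were well apart, with the highest treated library under the lowest control. CNIH4 averaged 121 ± 6.23 TPM in treated and 178 ± 13.9 TPM in control libraries (SD, n = 3 each), a log2 difference of -0.55 (SE 0.07, limma adjusted p = 0.00464) and the largest fall among the 57 genes. CNIH1 (ENSCAFG00845004489), known for the export of transforming growth factor alpha precursors, had 130, 140.1 and 131 TPM in treated libraries, against 159, 161 and 161 TPM in controls. The treated libraries were all lower, and the log2 difference was -0.26 (SE 0.05, limma adjusted p = 0.0228). Summed, the pair was 24.7% lower in treated cells.

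The p24 family, encoded by TMED genes, forms mixed complexes that gather GPI-anchored and other cargo at ER exit sites and that also bind COPI. Of the 8 TMED genes among the 57, 3 fell, 0 rose and 5 did not pass. Over all genes tested 1.72% fell and 1.31% rose, and these 8 belong to a list chosen with earlier results known. TMED3 (ENSCAFG00845005060), of the gamma subfamily, had 104, 88.5 and 85.6 TPM in treated libraries, against 139, 122 and 124 TPM in controls. All treated values lay below all controls, with a log2 difference of -0.47 (SE 0.08, limma adjusted p = 0.0185). TMED9 (ENSCAFG00845010269), of the alpha subfamily, had 124, 123 and 121 TPM in treated libraries, against 146, 140.0 and 152 TPM in controls. The treated libraries were lower and closely grouped, and the log2 difference was -0.25 (SE 0.05, limma adjusted p = 0.0284). TMED10 (ENSCAFG00845015221), the delta member that binds COPI through its tail, had 75.0, 74.0 and 71.3 TPM in treated libraries, against 85.4, 87.2 and 95.1 TPM in controls. These groups also did not overlap, with a log2 difference of -0.28 (SE 0.06, limma adjusted p = 0.0355).

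The beta member TMED2, a partner of TMED10, had 161, 162 and 163 TPM in treated libraries, against 179, 181 and 188 TPM in controls. Its treated values were all lower but its log2 difference of -0.17 did not pass (limma adjusted p = 0.0683). The gamma members TMED5 and TMED1 were similar, at 35.5 ± 0.458 TPM in treated and 42.2 ± 2.01 TPM in control libraries for TMED5 and at 17.9 ± 0.271 and 21.9 ± 1.34 TPM for TMED1 (SD, n = 3 each). Neither passed (limma adjusted p = 0.0597 and 0.0643), and for both the groups did not overlap. With a mean of at least 5 TPM required, or after quantile scaling, TMED5 passed, and after median-of-ratios scaling both did. TMED7, also of the gamma subfamily, had a log2 difference of -0.08 with a 95% interval of -0.25 to 0.09, and TMED8, a protein named for its related GOLD domain, had 0.01 with -0.20 to 0.22. Both overlapped between the groups.

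**Figure D3:**
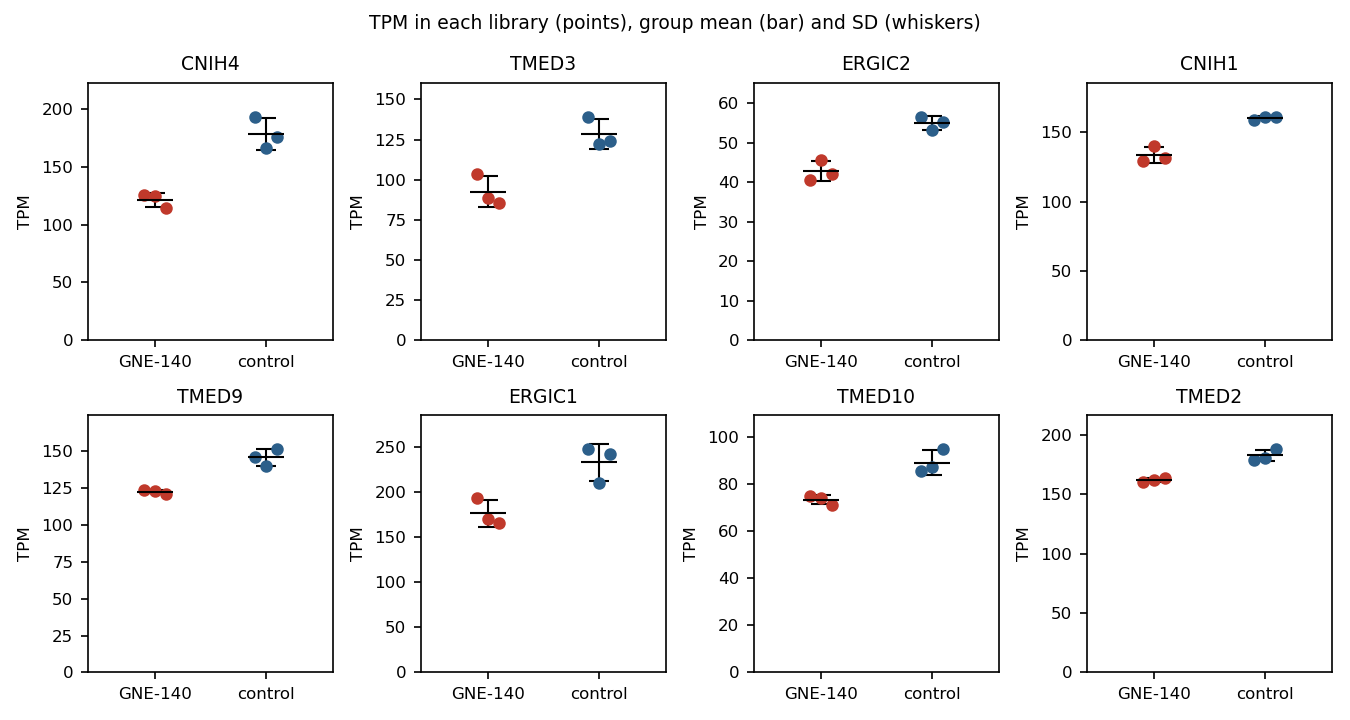
TPM (y axis, from 0) in each library of the 7 genes that fell and of TMED2, which did not pass, with treated libraries in red on the left, controls in blue on the right, black bars for group means and whiskers for SD. In all 8 panels the 3 treated points lie below the 3 control points.

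ERGIC1, ERGIC2 and ERGIC3 are membrane proteins that cycle between the ER, the intermediate compartment and the Golgi, and the yeast relatives of ERGIC2 and ERGIC3 form a receptor complex. ERGIC1 and ERGIC2 fell and ERGIC3 did not pass. ERGIC2 (ENSCAFG00845022137) had 40.6, 45.6 and 42.2 TPM in treated libraries, against 56.6, 53.1 and 55.2 TPM in controls, a log2 difference of -0.36 (SE 0.06, limma adjusted p = 0.0185). ERGIC1 (ENSCAFG00845000852), the most abundant of the 7 fallen genes, had 194, 170.2 and 166 TPM in treated libraries, against 248, 209.9 and 242 TPM in controls, a log2 difference of -0.40 (SE 0.08, limma adjusted p = 0.0310). For both genes the treated libraries were all below the controls. ERGIC3 had 54.7, 50.2 and 46.9 TPM in treated libraries and 54.9, 57.9 and 58.7 TPM in controls, and the highest treated library came close to the lowest control (log2 -0.17, limma adjusted p = 0.198).

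The lectin receptors bind sugar chains on glycoproteins, and LMAN1 with its partner MCFD2 exports coagulation factors V and VIII. None of LMAN1, LMAN2 and the partner protein MCFD2 passed. In all 3 the treated libraries lay below the controls, a pattern found in 11.8% of all genes tested. LMAN1 had 62.3, 61.1 and 65.7 TPM in treated libraries, against 71.9, 70.1 and 83.5 TPM in controls (log2 -0.25, limma adjusted p = 0.102). MCFD2 averaged 32.0 ± 2.87 TPM in treated and 36.0 ± 0.909 TPM in control libraries (SD, n = 3 each; log2 -0.17, limma adjusted p = 0.251). LMAN2, a lectin of the ER to Golgi route, averaged 67.1 ± 3.89 and 78.6 ± 2.55 TPM (SD, n = 3 each; log2 -0.23, limma adjusted p = 0.0744).

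The KDEL receptors return escaped ER chaperones from the Golgi in COPI vesicles, and none of the 3 passed. KDELR2, the most abundant, had 209.3, 208 and 207 TPM in treated libraries, against 228, 222 and 249 TPM in controls, and the treated libraries were all lower (log2 -0.16, limma adjusted p = 0.132). KDELR1 had 98.3, 79.6 and 82.0 TPM in treated libraries and 91.0, 84.8 and 97.9 TPM in controls, which overlapped (log2 -0.08, limma adjusted p = 0.703). KDELR3 was at 23.1, 25.8 and 23.2 TPM in treated libraries and 18.5, 20.8 and 23.9 TPM in controls, a log2 difference of 0.19 (limma adjusted p = 0.340; 95% interval -0.02 to 0.40). It was, with TMED8, the only gene of the cargo receptor list with a difference above 0, and its groups overlapped. The sign of TMED8 turned under median-of-ratios and quantile scaling and without (R)-GNE-140 replicate 1 or 3 or control replicate 3. SURF4, a receptor for many soluble secreted proteins, averaged 106 ± 7.74 TPM in treated and 116 ± 6.17 TPM in control libraries (SD, n = 3 each; log2 -0.14, limma adjusted p = 0.308).

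The COPII genes differed little. Their log2 differences ran from -0.10 to 0.11, and all 14 of the 95% intervals held 0 and lay within -0.26 to 0.25. PREB, the exchange factor that loads the GTPase SAR1 to start a coat, had 76.9, 72.2 and 75.2 TPM in treated libraries, against 79.0, 77.4 and 79.1 TPM in controls. Its treated libraries were all slightly lower, and the log2 difference of -0.07 did not pass (limma adjusted p = 0.515). SAR1A averaged 147 ± 5.45 and 145 ± 1.46 TPM in treated and control libraries, and SAR1B 42.8 ± 1.18 and 45.1 ± 1.90 TPM (SD, n = 3 each). Neither GTPase passed (limma adjusted p = 0.912 and 0.571).

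SEC23 and SEC24 form the inner COPII coat, and SEC24 is the subunit that binds cargo and receptors. SEC24C had 68.1, 63.4 and 66.3 TPM in treated libraries, against 63.3, 57.5 and 62.0 TPM in controls. It was the only COPII gene with every treated library above every control, a pattern found in 11.2% of all genes tested, and it did not pass (log2 0.11, limma adjusted p = 0.348). SEC24A averaged 12.3 ± 1.34 TPM in treated and 12.1 ± 0.104 TPM in control libraries, SEC24B 26.6 ± 2.02 and 26.2 ± 0.635 TPM and SEC24D 50.2 ± 2.53 and 49.5 ± 1.69 TPM (SD, n = 3 each). All 3 had log2 differences of 0.02, none passed (limma adjusted p = 0.930, 0.916 and 0.911), and the sign of each turned in a fit with a treated library left out. SEC23A averaged 36.9 ± 2.19 TPM in treated and 34.9 ± 1.38 TPM in control libraries, and SEC23B 77.8 ± 2.52 and 73.7 ± 2.81 TPM (SD, n = 3 each), both at log2 0.08 (limma adjusted p = 0.593 and 0.502). The outer coat genes SEC13 and SEC31A were at 0.05 and 0.02, the exit site scaffold SEC16A at 0.04, and SEC23IP, which binds SEC23, at 0.08. TFG, which organises exit sites, had 144, 128 and 142 TPM in treated libraries, against 148, 135 and 159.9 TPM in controls, which overlapped (log2 -0.10, limma adjusted p = 0.545). None of these passed.

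Coatomer, the COPI coat, is built of 7 kinds of subunit, encoded here by 9 genes because the gamma and zeta subunits each have a pair of genes. The minor forms of that pair of subunits had the largest COPI differences. COPG2 had 17.3, 18.0 and 18.8 TPM in treated libraries, against 21.3, 18.9 and 21.6 TPM in controls, and the highest treated value came close to the lowest control (log2 -0.18, limma adjusted p = 0.239). COPZ2 had 7.13, 7.21 and 5.44 TPM in treated libraries, against 4.66, 5.59 and 4.68 TPM in controls, which overlapped (log2 0.34, limma adjusted p = 0.187). Neither passed, and both had an unadjusted limma p under 0.05. The major forms did not pass either. COPG1 averaged 192 ± 6.78 TPM in treated and 187 ± 10.0 TPM in control libraries (SD, n = 3 each; log2 0.04, limma adjusted p = 0.788). COPZ1 averaged 163 ± 4.15 and 160.4 ± 3.11 TPM (SD, n = 3 each; log2 0.02, limma adjusted p = 0.850). COPE averaged 207 ± 10.3 TPM in treated and 220.2 ± 5.39 TPM in control libraries (SD, n = 3 each; log2 -0.09, limma adjusted p = 0.408). COPA, COPB1, COPB2 and ARCN1 had log2 differences of 0.03, -0.03, -0.04 and 0.03.

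ARF1 and ARF4 are GTPases that recruit coatomer, GBF1 is their exchange factor at the early Golgi, and the ARFGAP proteins end the cycle. ARF4 and ARF1 were the most abundant of the 57 genes, at 429 ± 6.25 and 400 ± 9.25 TPM in treated libraries and 427 ± 16.2 and 397 ± 8.92 TPM in controls (SD, n = 3 each). Both had log2 differences of 0.01, with 95% intervals of -0.09 to 0.11 for ARF4 and -0.08 to 0.10 for ARF1. ARFGAP2 had 63.2, 55.3 and 55.4 TPM in treated libraries and 57.8, 51.8 and 53.7 TPM in controls, which overlapped (log2 0.09, limma adjusted p = 0.576). The log2 difference was -0.05 for ARFGAP1, -0.04 for ARFGAP3 and 0.03 for GBF1, none past the threshold.

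Among the SNAREs, tethers and Golgi membrane proteins, YIF1A stood lowest. YIF1A, a Golgi membrane protein that pairs with YIPF5, had 68.3, 75.7 and 67.2 TPM in treated libraries, against 90.8, 80.0 and 81.9 TPM in controls. The groups did not overlap and the log2 difference of -0.25 did not pass (limma adjusted p = 0.0812). YIPF5 averaged 14.5 ± 0.626 and 15.6 ± 0.221 TPM in treated and control libraries (SD, n = 3 each), likewise with no overlap (log2 -0.10, limma adjusted p = 0.525). TRAPPC3, a subunit of the TRAPP tether, had 131, 121 and 125 TPM in treated libraries and 118, 119 and 128 TPM in controls, which overlapped (log2 0.05, limma adjusted p = 0.698). The SNARE GOSR1 averaged 15.7 ± 1.64 and 16.6 ± 1.10 TPM (SD, n = 3 each; log2 -0.08, limma adjusted p = 0.720). The SNAREs BET1, GOSR2 and STX5 had log2 differences of 0.07, 0.07 and 0.03 and the TRAPP subunit TRAPPC1 had 0.005, and none of these passed.

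**Figure D4:**
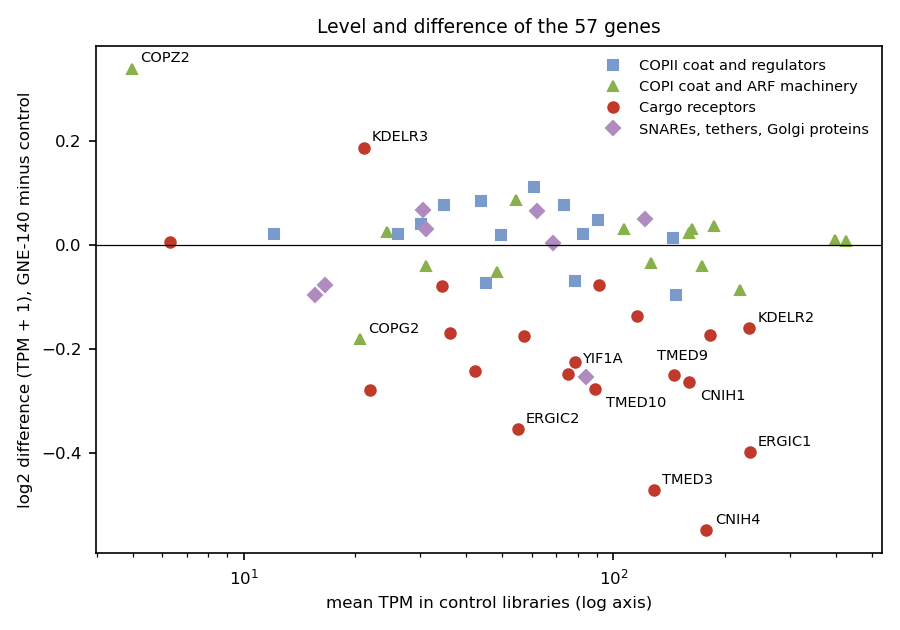
Log2 difference on the log2(TPM + 1) scale, (R)-GNE-140 minus control (y axis), against mean TPM in control libraries (log x axis) for the 57 genes, with marker shape and colour by role. Cargo receptors below 0 are spread from about 20 to over 200 TPM, a range that the COPI and COPII genes near 0 also cover.

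A further list held 54 other genes of the early secretory pathway, of which 49 passed the filter on low values. By limma over all genes 0 rose and 0 fell, and at an unadjusted p under 0.05, 2 were higher and 3 lower. With 3.03% called over all genes tested, 0 of 49 is near that share. At the unadjusted level 8.75% of all genes tested were higher and 9.16% lower. Their median log2 difference was -0.02. BCAP31, an ER membrane protein that sorts other membrane proteins for export, had 187, 175 and 161 TPM in treated libraries, against 197, 202 and 223 TPM in controls (log2 -0.25, limma adjusted p = 0.0900). The groups did not overlap. BLZF1, a Golgi matrix protein, averaged 45.3 ± 0.859 TPM in treated and 39.3 ± 1.82 TPM in control libraries (SD, n = 3 each; log2 0.20, limma adjusted p = 0.0988). The TRAPP subunit TRAPPC6A averaged 8.93 ± 0.675 TPM in treated and 10.9 ± 0.591 TPM in control libraries (SD, n = 3 each; log2 -0.26, limma adjusted p = 0.143). TRAPPC6B, another TRAPP subunit, averaged 32.8 ± 2.24 and 28.3 ± 1.68 TPM (SD, n = 3 each; log2 0.21, limma adjusted p = 0.164). MIA3, a receptor for bulky cargo such as collagen, was at -0.06, and the gamma p24 gene TMED6 was at only 1.94 TPM in treated and 2.27 TPM in control libraries. TRAPPC2L, named after its values were seen, passed only without control replicate 2 (log2 0.75, limma adjusted p = 0.0382), a library with 84.9 TPM against 40.7 and 39.7 TPM in the other controls.

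Most of the 7 calls were lost when a library was left out. CNIH4 kept its call in all 6 fits with a library left out, TMED3 in 3, ERGIC1 and ERGIC2 in 2 each, CNIH1 and TMED9 in 1 each and TMED10 in 0. The calls that remained were 3, 3 and 1 without (R)-GNE-140 replicates 1, 2 and 3 and 1, 5 and 2 without control replicates 1, 2 and 3, and no other member was called. The log2 differences stayed below 0 in these fits, between -0.60 and -0.49 for CNIH4, -0.55 and -0.41 for TMED3, and -0.47 and -0.35 for ERGIC1. They ran between -0.40 and -0.32 for ERGIC2, -0.30 and -0.24 for CNIH1, -0.28 and -0.22 for TMED9 and -0.31 and -0.23 for TMED10. Without the filter on low values 4 members were called, and without a mean trend in the variance only CNIH4.

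**Figure D5:**
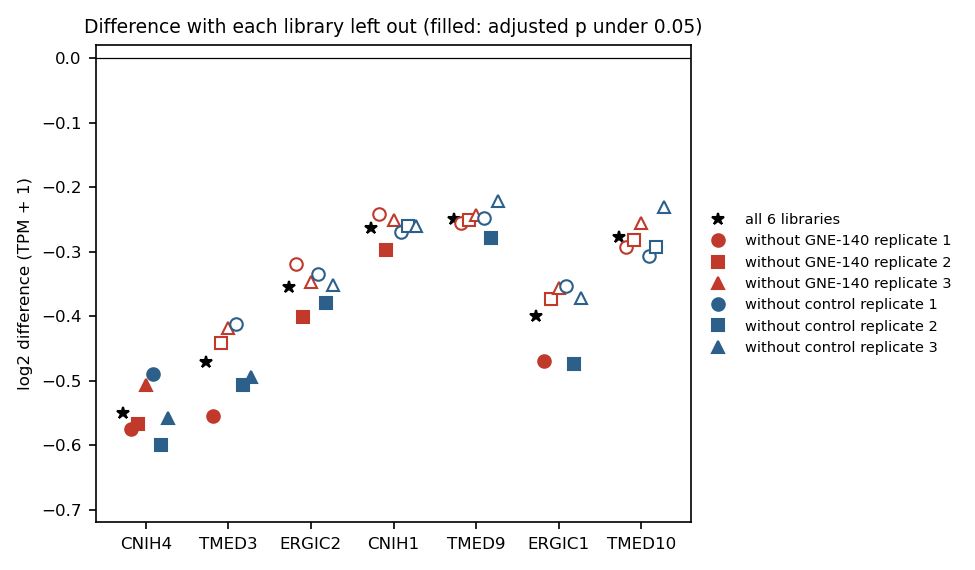
Log2 difference on the log2(TPM + 1) scale (y axis) of the 7 fallen genes, with all 6 libraries (black stars) and with each (R)-GNE-140 library (red) or control library (blue) left out, filled where the adjusted p is under 0.05. All points lie below -0.2, and CNIH4 is the only gene whose points are all filled.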

How the data were processed

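STAR, RSEM and edgeR 3.42.0 are named in the submitters' processing notes. Their settings and order, and the genome build, were not given in the sources used here, and coordinates are therefore left out. The authors deposited TPM values, rounded to 2 decimals, in a table of the whole series. Per the labels' protocols the kit is directional. Near-identical gene copies can share reads in such estimates. None of the 57 genes repeated the values of another row. A further list within the table pairs symbols with Ensembl identifiers and supplied those printed.

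The test was limma 3.58.1 (R 4.3.3) on log2(TPM + 1) of all genes averaging 1 TPM or more. The model held the group alone and a mean trend in the variance, with 2-sided tests and Benjamini-Hochberg adjustment over 10874 genes at 0.05. Fold changes on this scale understate those of low genes. The steps were tested in 10 simulations with the means and spreads of these data. Of set log2 differences of 0.3, 24.9% were called, of 0.5, 62.2%, and of 1, 92.0%. Of the calls, 4.97% were false. A gene that did not pass can therefore still differ by a small amount. Values per library or group means were given for called members, the 4 smallest p of each list and the paralogue groups. They were also given for further genes outside that rule, many of them cargo receptors that did not pass. The members and lists were chosen with earlier results of these data known. The 15 alternatives covered the pseudocount, filter, scaling and variance trend, a block for the replicate number, and leaving out each library. Figures were drawn with matplotlib 3.10.9.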

Additional observations from a re-analysis of the deposited data

How the results depend on the processing

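Of 10874 genes, 329 were called, against 168 without the filter on low values, 159 without the variance trend, and 74 to 185 with a library left out. The count of the 57 genes, all cargo receptors, was 7, against 4 without the filter, 1 without the trend and 1 to 5 with a library left out. It was 7 to 9 with the other pseudocounts, the higher filter and the 3 other scalings, and all 7 genes remained in each of these. Without the trend 57.9% of all calls were higher, against 43.2% with it. Replicate numbers are shared between the groups. Deviations from the group mean correlated at 0.0358, 0.00927 and -0.0977 between same-numbered libraries. These values gave no sign of pairing, but with 3 libraries per group they cannot exclude it. Of the treated libraries only replicate 1 correlated best with its own number, and no control library did. With the replicate block 163 genes and 4 members were called. The cargo receptor median stayed below 0 in all 15 alternatives, at -0.19 without control replicate 3. With a library left out the COPI median ran from -0.00758 to 0.0280, below 0 without (R)-GNE-140 replicate 1 or control replicate 2. The SNARE and tether median ran from -0.0203 to 0.0416, below 0 without (R)-GNE-140 replicate 1 or 3. The count of other pathway genes was 0, and 0 to 1 with a library left out. The causes were not tested. Depth is unknown, so how far it limits these calls cannot be given.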

Other observations

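The 7 coatomer subunits assemble in equal numbers, and their transcript levels differed between subunits. Summed over gene pairs where a subunit has them, they ran in treated libraries from 109 ± 3.83 TPM for alpha (COPA) to 210.2 ± 6.94 TPM for gamma (COPG1 and COPG2). In control libraries they ran from 107 ± 5.75 TPM for alpha to 220.2 ± 5.39 TPM for epsilon (COPE), all SD with n = 3. Among the COPII genes, SAR1 summed to 189 ± 5.32 TPM in treated and 190.1 ± 1.92 TPM in control libraries, SEC24 to 155 ± 4.31 and 149 ± 4.24 TPM, and SEC23 to 115 ± 3.61 and 109 ± 3.50 TPM.

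A total of 9 shares of a summed TPM were computed among related genes. COPG2 supplied 8.14%, 8.91% and 8.71% of gamma coatomer TPM in treated libraries and 10.1%, 9.67% and 9.96% in controls. KDELR3 supplied 6.98%, 8.23% and 7.43% of KDEL receptor TPM in treated libraries and 5.47%, 6.36% and 6.44% in controls. CNIH4 supplied 49.2%, 47.0% and 46.5% of cornichon TPM in treated libraries and 54.9%, 50.7% and 52.2% in controls. These 3 shares did not overlap between the groups. They reached an exact permutation p of 0.1, the smallest 2-sided value that 3 against 3 libraries allow. After Benjamini-Hochberg adjustment over the 9 shares it was 0.3. The other shares overlapped, with an exact permutation p of 0.2 for SAR1A and for COPZ2, 0.7 for SEC24A with SEC24B and 0.9 for KDELR1. Those of ARF4 and SEC23A overlapped as well. Of single genes tested, 11.2% had all treated libraries above all controls and 11.8% had them all below. SEC23A supplied 32.1 ± 1.36% of SEC23 TPM in treated and 32.1 ± 0.973% in control libraries (SD, n = 3 each).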
